A study of Mus musculus with 81 samples.

Results

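The chemokine receptor genes Ccr2, Ccr4, Ccr6, Ccr7, Ccr8, Ccr9, Cxcr3, Cxcr4, Cxcr5 and Cxcr6 were followed across 5 RNA sequencing experiments in a mouse T cell line. They were chosen by name, as receptors known from T cells, and are 10 of the 24391 gene rows of the count table. Chemokine receptors are G-protein-coupled receptors of the cell surface. A chemokine that binds one of them activates the Gi class of G proteins, and the cell then turns and moves towards the source of the chemokine. Which receptors a T cell carries sets where it can go: Ccr7 and Cxcr5 guide cells within lymph nodes and follicles, Ccr9 to the small intestine, Ccr4 and Ccr8 to skin and other tissues, Ccr6 to mucosal surfaces, Ccr2, Cxcr3 and Cxcr6 to inflamed tissue, and Cxcr4 retains cells in bone marrow.

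All libraries came from a hybridoma mature T cell line, which is an immortal fusion line and not a primary T cell. RBPJ is the DNA-binding protein of the Notch pathway: the released Notch intracellular domain (NICD) joins it to activate genes, and without NICD it can hold corepressors. In the depletion experiment, cells depleted of RBPJ by CRISPR (sgRbpj lines 2-12 and 2-14) were set against their control (Control sgRbpj), with 2 libraries per line; whether each line is 1 clone is not given in the sources used here. In the NICD1-ER experiment, cells carried NICD1 fused to an estrogen receptor domain and received 1 µM 4-hydroxytamoxifen (4-OHT) for 4, 8 or 24 h, or ethanol. The ethanol group was sampled at 24 h, so the 4 h and 8 h groups have no control of their own time. No samples are of cells without NICD1-ER given 4-OHT, so an effect of 4-OHT itself cannot be told apart from that of NICD1-ER. In the KYOT2 experiment, GFP-KYOT2 wild type and GFP-KYOT2 WWAA were set against GFP, with 3 libraries each; KYOT2 is a LIM-domain partner of RBPJ, and the WWAA mutant is defective in that interaction per the labels. In the GSI experiment, the gamma-secretase inhibitor DAPT, which blocks release of NICD, was given at 20 µg/ml for 24 h and set against DMSO, with 2 libraries each. In the BioNICD1 experiment, RBPJ-depleted cells and their controls carried either BioNICD1 wild type or the Biocontrol vector, with 3 libraries in each of 4 groups; the line depleted there is not given in the sources used here.

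Total counts per library lay between 2377028 and 5998832 in the depletion experiment, 4325641 to 5395008 with NICD1-ER, 9401514 to 14244209 with KYOT2, 4992690 to 6327603 with GSI and 8113019 to 10113741 with BioNICD1. Levels are TMM-normalised CPM (counts scaled to library size), in which 3 counts, used as the limit of detection, stand for about 0.211 to 1.26 CPM. All 10 T cell marker genes of the list used here had counts, and their summed level was 901 to 2281 CPM in each sample. The B cell gene Ms4a1 was at 0 counts in every library. Rbpj averaged 37.8 ± 9.02 CPM (line 2-12) and 50.7 ± 12.6 CPM (line 2-14), against 157 ± 34.4 CPM in the control line (SD, n = 2 each), and at 19.3 ± 0.607 CPM in depleted cells with Biocontrol, against 90.9 ± 2.86 CPM in control cells with Biocontrol (SD, n = 3 each). At 4 h and at 8 h of 4-OHT, the first pair of replicates, 1 and 2, showed less difference than sampling noise gives (chi-square per gene 0.907 and 0.835) and were counted as 1 sample, so each NICD1-ER group has n = 2. Replicate 1 of the ethanol and of the 24 h 4-OHT group was not analysed here. The 2 libraries at 24 h of 4-OHT also differed by less than sampling noise (0.928) but are the only ones of their group and were kept apart, so their spread may understate that between cultures. At 8 h, replicate 3 differed from replicates 1 and 2 by little more than sampling noise (1.29 and 1.09), so the spread there may understate it too. Replicate 1 of depleted cells with BioNICD1 stood apart from its group (chi-square per gene 52.2 and 52.6, against 9.56 between the other 2 libraries), as did replicate 3 of the depleted Biocontrol cells (23.1 and 41.8, against 5.07) and replicate 3 of each KYOT2 group (13.3 to 26.2, against 1.94 to 6.64). Calls in the comparisons that use these libraries are given with and without them. Where groups are said not to overlap, or every library of 1 group lies above or below another, this describes the receptors named. The share of all genes without overlap was not counted, so such separation is not offered as support.

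The start regions of the receptor genes were read from RefSeq (GRCm38.p6), in windows of 300 bases that end shortly after each annotated start. Of the 10 genes, 8 had such a window, and Ccr6 had a second one for a further start; Ccr7 and Cxcr5 had none in the table used. The windows were searched on both strands for GTGGGAA, the core of the RBPJ binding motif, and for its shorter form TGGGAA, which lies within it. The full core was in 0 of the 9 receptor windows and in 6.38% of all 32851 windows of the same length. The shorter form was in 2 of the 9 receptor windows and in 25.6% of all windows. Shown are the windows of Ccr2, which like Ccr6 passed the test in 4 of the 5 experiments, and of Ccr6 and Cxcr3. The last 2 genes hold the 2 matches, printed in capitals as their reverse complement TTCCCA. The Ccr2 window is chr9:124101933-124102232 on the plus strand, the second Ccr6 window is chr17:8242276-8242575 on the plus strand, and the Cxcr3 window is chrX:101734098-101734397 on the minus strand. A match describes the letters and is no evidence of binding, and the absence of one says nothing of the factor.
Ccr2: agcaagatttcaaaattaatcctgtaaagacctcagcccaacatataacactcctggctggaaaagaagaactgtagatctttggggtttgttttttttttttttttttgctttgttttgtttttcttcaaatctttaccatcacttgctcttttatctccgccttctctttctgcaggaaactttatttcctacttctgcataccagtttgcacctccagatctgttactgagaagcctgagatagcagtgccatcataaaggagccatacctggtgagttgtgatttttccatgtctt
Ccr6: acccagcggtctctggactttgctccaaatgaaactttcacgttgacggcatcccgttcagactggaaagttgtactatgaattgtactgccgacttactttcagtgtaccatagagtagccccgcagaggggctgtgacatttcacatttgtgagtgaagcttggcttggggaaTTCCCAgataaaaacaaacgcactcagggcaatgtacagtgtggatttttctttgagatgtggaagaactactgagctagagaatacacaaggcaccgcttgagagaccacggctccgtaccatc
Cxcr3: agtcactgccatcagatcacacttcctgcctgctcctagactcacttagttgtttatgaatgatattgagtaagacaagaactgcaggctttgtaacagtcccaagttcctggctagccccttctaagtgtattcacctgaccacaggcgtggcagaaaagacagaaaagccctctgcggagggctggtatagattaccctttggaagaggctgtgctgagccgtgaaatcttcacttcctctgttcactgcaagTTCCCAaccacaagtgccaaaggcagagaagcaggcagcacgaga
In the Ccr6 window the match lies 75 bases before the start site, and in the Cxcr3 window it lies 5 bases into the transcribed part.

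Not every receptor was measurable. Cxcr5, the receptor for Cxcl13 that guides cells into B cell follicles, had at most 6 counts in any library and passed the filter on low counts in no experiment. Ccr7, the receptor for Ccl19 and Ccl21, passed only in the NICD1-ER and GSI experiments, Cxcr3 only in the NICD1-ER and BioNICD1 experiments, and Ccr9 in all but the depletion experiment. The other 6 receptors passed in all 5. This left 6 receptors tested in the depletion experiment, 9 with NICD1-ER, 7 with KYOT2, 8 with GSI and 8 with BioNICD1.

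The same receptors stood at different levels in the control cells of the 5 experiments. These levels were normalised within each experiment and no test was made between experiments, where cell line passage, vector and library batch cannot be told apart. Ccr6, the receptor for Ccl20, was at 94.9 ± 14.3 CPM in the Control sgRbpj line (n = 2) and 90.4 ± 0.221 CPM with DMSO (n = 2), lower at 26.3 ± 0.0616 CPM with ethanol (n = 2), and at 1.67 ± 0.482 and 0.704 ± 0.172 CPM in control cells with Biocontrol and in GFP cells (SD, n = 3 each). Within that order the first 2 levels did not differ beyond their spread. Ccr2, the receptor for Ccl2, was highest with ethanol at 63.3 ± 8.83 CPM, followed by DMSO at 28.4 ± 3.8 CPM, control cells with Biocontrol at 23.2 ± 2.05 CPM, the Control sgRbpj line at 4.91 ± 1.24 CPM and GFP cells at 4.16 ± 0.618 CPM. The Ccr2 levels with DMSO and in control cells with Biocontrol differed by less than the sum of their SDs, and so did those of the Control sgRbpj line and GFP cells. Cxcr4, the receptor for Cxcl12, was at 117 to 126 CPM on average in 4 of these groups and at 33.2 ± 0.829 CPM in control cells with Biocontrol. Ccr4, the receptor for Ccl17 and Ccl22, ran from 11.8 ± 2.09 CPM in GFP cells to 146 ± 8.41 CPM with ethanol, and Cxcr6, the receptor for Cxcl16, from 4.46 ± 0.41 CPM in GFP cells to 98 ± 2.59 CPM with DMSO. Ccr8, the receptor for Ccl1 and Ccl8 in mouse, was at 74.5 ± 0.927 CPM with DMSO and 73.3 ± 2.56 CPM with ethanol, which did not differ beyond their spread, and at 5.4 ± 0.55 CPM in control cells with Biocontrol. Ccr9, the receptor for Ccl25, and Cxcr3, the receptor for Cxcl9, Cxcl10 and Cxcl11, were highest in control cells with Biocontrol (30.3 ± 2.25 CPM) and with ethanol (10.1 ± 1.04 CPM).

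**Figure D1:**
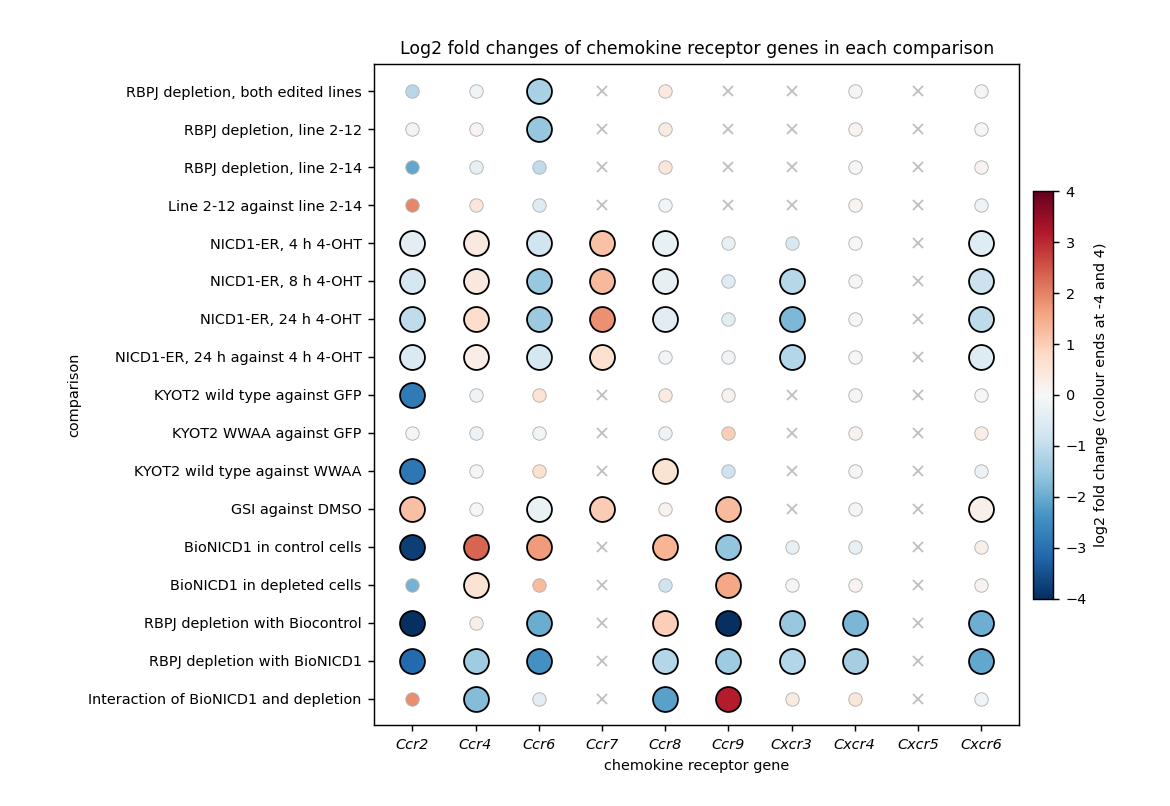
Log2 fold changes of the 10 receptors (columns) in each comparison (rows), red where the first-named condition is higher and blue where it is lower. Large circles with a black edge passed the adjusted p threshold of 0.05, small circles did not, and grey crosses mark receptors with too few counts to test. Ccr2 and Ccr6 each passed in 10 of the 17 comparisons and Cxcr4 only in the RBPJ depletion comparisons of the BioNICD1 experiment.

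With 4-OHT in NICD1-ER cells, Ccr7 and Ccr4 were higher and Ccr2, Ccr6, Ccr8, Cxcr3 and Cxcr6 lower than with ethanol. Cxcr4 had 114 to 124 CPM in the samples with 4-OHT, within the 117 to 130 CPM of ethanol or just below. At 4 h, 6 of the 9 tested receptors passed the edgeR test (adjusted p below 0.05), 2 of them higher and 4 lower, beside 6.25% of all genes tested, 3.16% higher and 3.09% lower. At 8 h 7 of 9 passed beside 10.4% of all genes (5.06% higher and 5.31% lower), and at 24 h 7 of 9 beside 10.8% (6.59% higher and 4.22% lower), with 2 receptors higher and 5 lower each time. The 3 comparisons share the ethanol libraries. In bulk RNA, fewer cells that express a receptor and less of its RNA per cell cannot be told apart.

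Ccr7, which brings T cells into lymph nodes, had 21.9 and 18.2 CPM with ethanol, 49 and 37.5 CPM after 4 h of 4-OHT, 50.2 and 47.6 CPM after 8 h, and 71.6 and 69.8 CPM after 24 h. Every sample with 4-OHT was above both ethanol samples, and both 24 h samples were above all others. Its log2 fold change over ethanol was 1.17 ± 0.13 (SE) at 4 h, 1.31 ± 0.13 at 8 h and 1.83 ± 0.13 at 24 h (edgeR adjusted p = 3.36e-05, 4.31e-06 and 3.31e-08). At 24 h against 4 h of 4-OHT it was a further 0.66 ± 0.10 higher (adjusted p = 0.00022).

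Ccr4, a receptor of helper T cells that home to skin, had 140 and 152 CPM with ethanol, 191 and 197 CPM after 4 h of 4-OHT, 196 and 195 CPM after 8 h, and 229 and 244 CPM after 24 h. The groups with 4-OHT did not overlap with ethanol. The rise was 0.40 ± 0.05 at 4 h, 0.42 ± 0.05 at 8 h and 0.69 ± 0.05 at 24 h on the log2 scale (SE, adjusted p = 0.000132, 4.84e-05 and 1.1e-07).

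Among the receptors that fell, Cxcr3, a receptor of Th1 cells, had 10.9 and 9.39 CPM with ethanol, 5.82 and 7.8 CPM after 4 h of 4-OHT, 4.77 and 4.27 CPM after 8 h, and 2.83 and 2.95 CPM after 24 h. The 24 h samples were the lowest and were 3.47-fold below ethanol (log2 fold change -1.79 ± 0.26 SE, adjusted p = 0.000145). The 4 h difference of -0.63 ± 0.20 had an adjusted p of 0.0746, and it passed without replicate 3 at 4 h (-0.79, adjusted p = 0.0388); over all fits that left out 1 sample it was -0.79 to -0.37, adjusted p = 0.0388 to 0.56.

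Ccr6 had 26.3 and 26.2 CPM with ethanol, 16.1 and 13.7 CPM after 4 h of 4-OHT, 8.28 and 10.6 CPM after 8 h, and 10.9 and 7.8 CPM after 24 h. The 4 h samples lay between ethanol and the later groups, and the 8 h and 24 h samples overlapped. Its log2 fold changes were -0.78 ± 0.14, -1.53 ± 0.16 and -1.47 ± 0.18 (SE, adjusted p = 0.00287, 6.37e-06 and 1.56e-05).

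Ccr2 had 57.1 and 69.5 CPM with ethanol, 48.5 and 45.5 CPM after 4 h of 4-OHT, 39.2 and 39.8 CPM after 8 h, and 30.3 and 32.7 CPM after 24 h. No 2 of these groups overlapped. The log2 fold change was -0.43 ± 0.09 at 4 h, -0.69 ± 0.09 at 8 h and -1.02 ± 0.10 at 24 h (SE, adjusted p = 0.00688, 7.21e-05 and 2.63e-06).

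Cxcr6, carried by tissue-resident and effector T cells, had 69.8 and 72.4 CPM with ethanol, 48.1 and 54.8 CPM after 4 h of 4-OHT, 39.6 and 38.1 CPM after 8 h, and 36.2 and 32.7 CPM after 24 h. No 2 groups overlapped here either, and at 24 h the log2 fold change was -1.04 ± 0.09 (SE, adjusted p = 4.71e-07). Cxcr6 overlaps Fyco1 in the RefSeq annotation, and whether reads were counted by strand is not given in the sources used here. Fyco1 itself averaged 75.2 ± 5.1 CPM after 24 h of 4-OHT and 77.8 ± 10.8 CPM with ethanol (SD, n = 2 each).

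Ccr8, found on skin-homing and regulatory T cells, moved least among those that fell. It had 75.1 and 71.5 CPM with ethanol, 61.6 and 53.1 CPM after 4 h of 4-OHT, 58 and 56.1 CPM after 8 h, and 52.4 and 53.3 CPM after 24 h. All samples with 4-OHT were below both ethanol samples, and the 4 h samples spanned those of 8 h. The log2 fold changes were -0.32 ± 0.07, -0.35 ± 0.08 and -0.47 ± 0.08 (SE, adjusted p = 0.0164, 0.00558 and 0.000912).

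Ccr9 and Cxcr4 did not pass at any time. Ccr9, a gut-homing receptor, had 16.9 and 20.7 CPM with ethanol, and 14.1 and 17, 14.2 and 12.4, and 14.5 and 13.1 CPM after 4, 8 and 24 h of 4-OHT. Both later groups lay below ethanol, and the adjusted p was 0.253 at 4 h, 0.057 at 8 h and 0.106 at 24 h. The 8 h difference of -0.48 passed without replicate 2 of ethanol (-0.61, adjusted p = 0.0485), without replicates 1 and 2 at 4 h (-0.49, adjusted p = 0.0311) and without replicate 3 at 4 h (-0.48, adjusted p = 0.037), within a range of -0.61 to -0.31, adjusted p = 0.0311 to 0.407 over all fits that left out 1 sample. Cxcr4 had 130 and 117 CPM with ethanol, and 121 and 123, 119 and 114, and 122 and 124 CPM after 4, 8 and 24 h, with log2 fold changes of -0.01 ± 0.06, -0.07 ± 0.06 and 0.00 ± 0.06 (SE). Cxcr5 had 3 counts over both ethanol libraries and 0 over both libraries at 24 h, which is at the limit of detection.

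The later change was tested as 24 h against 4 h of 4-OHT, where 6 of 9 receptors passed beside 13.4% of all genes (8% higher and 5.41% lower). Ccr7 and Ccr4 were higher at 24 h, and Ccr2 (-0.59 ± 0.10), Ccr6 (-0.69 ± 0.18), Cxcr3 (-1.16 ± 0.27) and Cxcr6 (-0.55 ± 0.09, log2 fold change with SE) were lower. Ccr8 (-0.15 ± 0.08, adjusted p = 0.254), Ccr9 (-0.13 ± 0.16) and Cxcr4 (0.01 ± 0.05) did not pass. The Ccr6 call of this comparison was lost without the sum of replicates 1 and 2 at 4 h (-0.53, adjusted p = 0.194) and without replicate 3 at 24 h (-0.48, adjusted p = 0.232), and the Cxcr3 call without replicate 2 or replicate 3 at 24 h (-1.13 and -1.20, adjusted p = 0.0852 and 0.0619).

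Calls at 4 h and 8 h depended on the tool and the ethanol libraries. With DESeq2 the calls for Ccr2 (adjusted p = 0.164), Ccr6 (0.0642) and Ccr8 (0.295) at 4 h, Ccr8 (0.129) and Cxcr3 (0.0736) at 8 h, and Ccr6 (0.228) and Cxcr3 (0.119) at 24 h against 4 h were lost, all with the same sign. The Ccr2 call at 4 h was lost without replicate 3 of ethanol (-0.27, adjusted p = 0.17), and the Ccr8 call at 4 h without replicate 2 of ethanol (-0.28, adjusted p = 0.109), replicate 3 of ethanol (-0.36, adjusted p = 0.0504) or replicate 3 at 4 h (-0.25, adjusted p = 0.0571). Every call at 24 h against ethanol was kept in every fit that left out 1 sample, with the 24 h libraries counted as 2 samples.

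**Figure D2:**
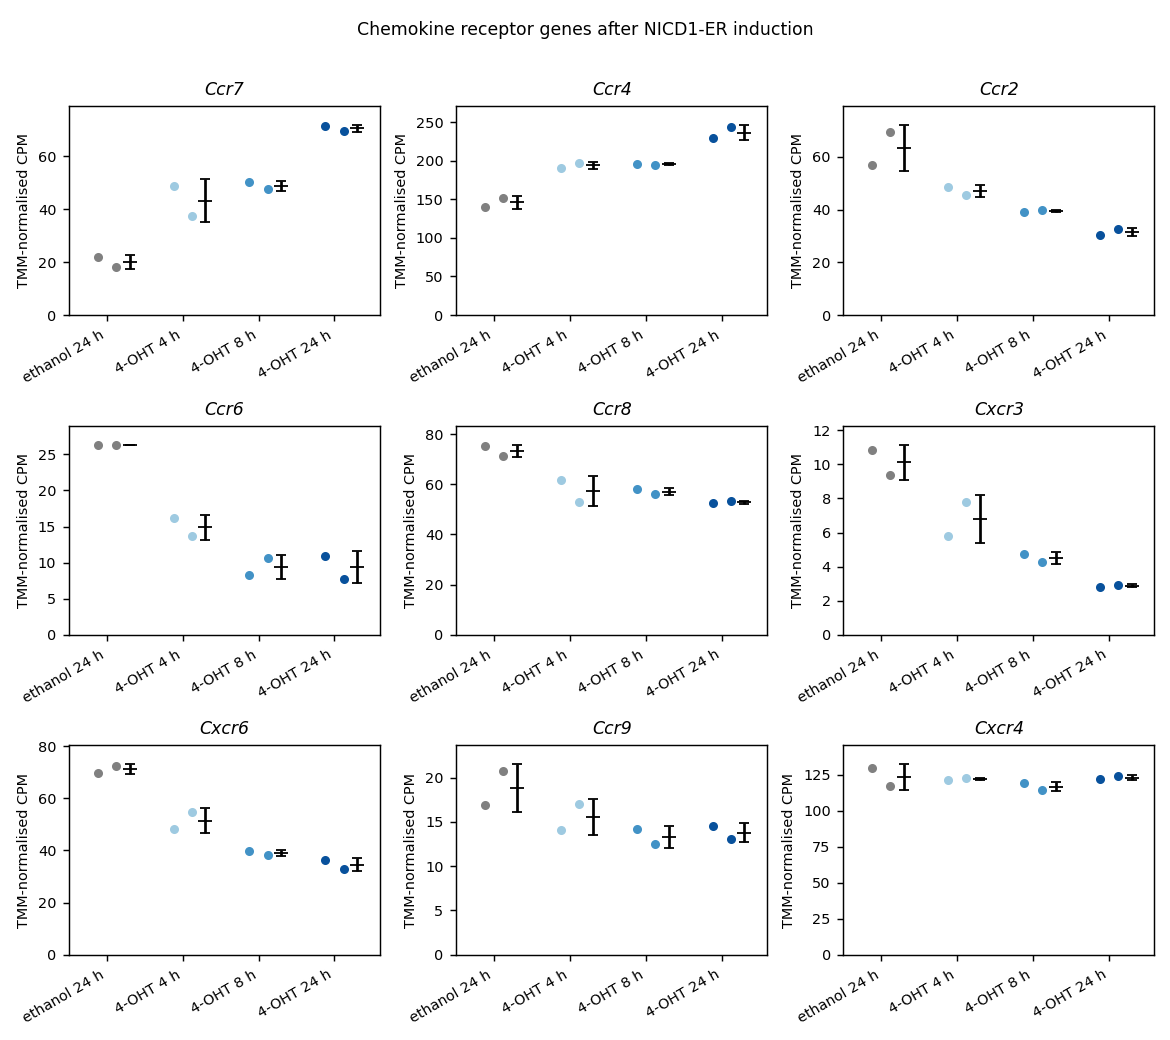
TMM-normalised CPM of 9 receptors in the NICD1-ER experiment, by group from ethanol to 24 h of 4-OHT; each panel has its own vertical axis, which starts at 0. Points are samples (n = 2 per group), and the bar beside them is the mean with its SD. Ccr7 is 20.1 CPM on average with ethanol and 70.7 CPM at 24 h, while Cxcr4 stays between 114 and 130 CPM in all samples.

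BioNICD1 in control cells left a different pattern across the receptors. Ccr4, Ccr6 and Ccr8 rose and Ccr2 and Ccr9 fell, and 5 of 8 tested receptors passed beside 32.9% of all genes tested (18.7% higher and 14.2% lower). The BioNICD1 and NICD1-ER experiments differ in construct, duration and libraries and were fitted apart, so no test of the difference between them was made.

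Ccr4 had 124, 115 and 118 CPM in control cells with BioNICD1, against 23.6, 23.1 and 24.6 CPM in control cells with Biocontrol, a 5-fold rise (log2 fold change 2.32 ± 0.12 SE, adjusted p = 1.41e-08). Ccr6 had 4.7, 5.15 and 6.39 CPM with BioNICD1, against 1.77, 1.15 and 2.1 CPM with Biocontrol (1.69 ± 0.27, adjusted p = 0.000398). Ccr8 had 10.6, 15 and 15.5 CPM with BioNICD1, against 5.45, 4.83 and 5.93 CPM with Biocontrol (1.34 ± 0.28, adjusted p = 0.00315). For all 3 receptors each library with BioNICD1 was above each library with Biocontrol.

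Ccr2 had 1.57, 2.1 and 1.45 CPM in control cells with BioNICD1, against 22.3, 25.5 and 21.7 CPM with Biocontrol, 13.5-fold lower (log2 fold change -3.75 ± 0.25 SE, adjusted p = 2.07e-07). Ccr9 had 12.2, 9.24 and 8.81 CPM with BioNICD1, against 32.1, 31.2 and 27.8 CPM with Biocontrol (-1.59 ± 0.15, adjusted p = 6.26e-06). Neither gene overlapped between the groups. These 5 calls were kept in each of the 12 fits that left out 1 library, and without both depleted libraries that stood apart.

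The remaining receptors did not pass. Cxcr4 had 24.2, 24.8 and 29.5 CPM with BioNICD1, against 32.4, 33.1 and 34.1 CPM with Biocontrol, without overlap (-0.34 ± 0.18, adjusted p = 0.164). It passed when both depleted libraries that stood apart were left out (-0.35, adjusted p = 0.00692) and when only these 2 groups were fitted (-0.35, adjusted p = 0.00704). Cxcr3 (-0.32 ± 0.29) and Cxcr6 (0.24 ± 0.15) overlapped between the groups. Ccr7 had 19 counts over the 3 libraries with BioNICD1 and 7 with Biocontrol, and Cxcr5 2 and 0, too few to test.

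In RBPJ-depleted against control cells, both with Biocontrol, 6 of the 8 tested receptors were lower and Ccr8 was higher, beside 42% of all genes tested that passed in either direction (21.7% higher and 20.3% lower). Ccr2 had 0.989, 0.55 and 0.602 CPM in depleted cells, against 22.3, 25.5 and 21.7 CPM in control cells, 31.8-fold lower (log2 fold change -4.99 ± 0.29 SE, adjusted p = 8.27e-08). Ccr9 had 1.19, 0.916 and 1.81 CPM in depleted cells, against 32.1, 31.2 and 27.8 CPM in control cells, 23.7-fold lower (-4.56 ± 0.20, adjusted p = 1.09e-08). In depleted cells the libraries held 5 to 10 counts of Ccr2 and 10 to 15 of Ccr9.

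Cxcr4 had 11.1, 10.3 and 6.38 CPM in depleted cells, against 32.4, 33.1 and 34.1 CPM in control cells (-1.83 ± 0.20, adjusted p = 1.44e-05). Cxcr6 had 2.57, 3.02 and 1.93 CPM in depleted cells, against 9.5, 9.32 and 10.6 CPM in control cells (-1.94 ± 0.17, adjusted p = 2.88e-06). Fyco1, which overlaps Cxcr6, averaged 81.9 ± 13.8 CPM in depleted cells and 87.8 ± 4.32 CPM in control cells (SD, n = 3 each). Cxcr3 had 1.19, 2.66 and 1.08 CPM in depleted cells, against 5.83, 4.03 and 4.82 CPM in control cells (-1.52 ± 0.33, adjusted p = 0.0026), and Ccr6 0.297, 0.55 and 0.361 CPM against 1.77, 1.15 and 2.1 CPM (-1.99 ± 0.42, adjusted p = 0.00226). None of these 4 receptors overlapped between depleted and control cells. Ccr6 in depleted cells was at or near the limit of detection, so a few counts set its fold. Without both depleted libraries that stood apart, all 7 calls of this comparison were kept.

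Ccr8 went the other way, with 9.89, 14.8 and 7.11 CPM in depleted cells, against 5.45, 4.83 and 5.93 CPM in control cells (0.99 ± 0.29, adjusted p = 0.0166). This call was lost without either the second depleted library with Biocontrol (replicate 2, 0.66, adjusted p = 0.0878) or the second control library with Biocontrol (replicate 2, 0.90, adjusted p = 0.0653). Ccr4 had 25.2, 29.6 and 32.9 CPM in depleted cells, against 23.6, 23.1 and 24.6 CPM in control cells, and did not pass (0.30 ± 0.12, adjusted p = 0.0596). It passed without replicate 1 of the depleted Biocontrol cells (0.39, adjusted p = 0.0258) and without replicate 1 or 2 of depleted cells with BioNICD1 (0.29 and 0.30, adjusted p = 0.0352 and 0.0451), within 0.22 to 0.39, adjusted p = 0.0258 to 0.159 over all fits that left out 1 library. Cxcr5 had 12 counts over the depleted libraries and 0 over the control libraries, at least 3.37-fold higher against a floor of 3 counts over the group, and was not tested. Ccr7 had 1 count in depleted and 7 in control cells, a ratio of 0.12 with a 95% counting interval of 0.00267 to 0.936 that covers counting error only.

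With BioNICD1 present, all 8 tested receptors were lower in depleted than in control cells, beside 39.8% of all genes in either direction (18.5% higher and 21.4% lower). Ccr4 had 50.1, 38.9 and 43.1 CPM in depleted cells with BioNICD1, against 124, 115 and 118 CPM in control cells with BioNICD1 (-1.43 ± 0.11 SE, adjusted p = 6.55e-07). Ccr8 had 4.05, 8.01 and 5.87 CPM in depleted cells, against 10.6, 15 and 15.5 CPM in control cells (-1.18 ± 0.28, adjusted p = 0.00479). Ccr9 had 3.57, 3.81 and 3.73 CPM in depleted cells, against 12.2, 9.24 and 8.81 CPM in control cells (-1.44 ± 0.18, adjusted p = 5.93e-05). Each of the 3 was lower in every depleted library than in any control library.

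Ccr2 had only 4, 0 and 1 counts in the depleted libraries with BioNICD1 against 15, 22 and 15 counts in the control libraries, with a fitted log2 fold change of -3.12 ± 0.54 (SE, adjusted p = 0.000619) that is no bound and was -4.69 (adjusted p = 0.000111) without replicate 1 of depleted cells with BioNICD1, and -2.50 at the other end of the fits that left out 1 library. Ccr6 (-2.43 ± 0.29), Cxcr4 (-1.37 ± 0.20) and Cxcr6 (-2.09 ± 0.17) were lower by 2.59 to 5.38 fold, without overlap. Cxcr3 was lower by -1.17 ± 0.33 (adjusted p = 0.0141), a call lost without replicate 2 of control cells with BioNICD1 (-0.91, adjusted p = 0.0714). Ccr7 had 3 and 19 counts in depleted and control cells with BioNICD1, a ratio of 0.176 with a counting interval of 0.0334 to 0.599. Cxcr5 had 6 and 2 counts. Without both depleted libraries that stood apart, all 8 calls were kept.

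In depleted cells, BioNICD1 raised Ccr4 and Ccr9, 2 of 8 tested receptors beside 4.14% of all genes (2.7% higher and 1.45% lower). Ccr9 had 3.57, 3.81 and 3.73 CPM in depleted cells with BioNICD1, against 1.19, 0.916 and 1.81 CPM in depleted cells with Biocontrol (1.54 ± 0.25 SE, adjusted p = 0.00459), and Ccr4 50.1, 38.9 and 43.1 CPM against 25.2, 29.6 and 32.9 CPM (0.59 ± 0.11, adjusted p = 0.0124). Neither overlapped. When only these 2 groups were fitted, both calls were lost (adjusted p = 0.112 for Ccr9 and 0.207 for Ccr4), and the Ccr4 call was lost without replicate 1 of the depleted Biocontrol cells (0.50, adjusted p = 0.0691). Without both libraries that stood apart they were kept (0.58, adjusted p = 0.00196 for Ccr4, and 1.83, adjusted p = 0.00148 for Ccr9).

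The other 6 receptors did not pass in depleted cells. Ccr8 had 4.05, 8.01 and 5.87 CPM with BioNICD1, against 9.89, 14.8 and 7.11 CPM with Biocontrol (-0.82 ± 0.28, adjusted p = 0.127), with overlap. It passed without replicate 3 of the depleted Biocontrol cells (-1.04, adjusted p = 0.0284), and without both libraries that stood apart (-0.82, adjusted p = 0.0291), within -1.10 to -0.50, adjusted p = 0.0284 to 0.491 over all fits that left out 1 library. Ccr2 (-1.88 ± 0.65, adjusted p = 0.128) passed without replicate 1 of depleted cells with BioNICD1 (-3.45, adjusted p = 0.0379) and without both libraries that stood apart (-3.55, adjusted p = 0.0181), within -3.45 to -1.26, adjusted p = 0.0379 to 0.383 over all fits that left out 1 library. In depleted cells with BioNICD1, Ccr2 was at 0 to 0.476 CPM, on average 0.196 CPM and below the limit of detection. A few counts set these Ccr2 values, so they are no bounds and their passes are not offered as support. Ccr6 had 12, 6 and 9 counts with BioNICD1 and 3, 6 and 3 with Biocontrol (1.26 ± 0.45, adjusted p = 0.147). Cxcr3 (0.03 ± 0.38), Cxcr4 (0.11 ± 0.21) and Cxcr6 (0.09 ± 0.20) overlapped between the groups.

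The effect of BioNICD1 in depleted cells minus that in control cells was tested as an interaction, which 3 of 8 receptors passed beside 22.5% of all genes (9.17% positive and 13.3% negative). It was -1.73 ± 0.16 for Ccr4 (SE, adjusted p = 1.17e-05), where the rise was smaller in depleted cells. For Ccr8 it was -2.17 ± 0.40 (adjusted p = 0.00249), where BioNICD1 raised the gene in control cells (1.34) and the value in depleted cells (-0.82) did not pass. For Ccr9 it was 3.13 ± 0.29 (adjusted p = 1.17e-05), where BioNICD1 raised the gene in depleted cells and lowered it in control cells. These 3 calls were kept in every fit that left out 1 library, and without both libraries that stood apart (-1.74, -2.17 and 3.43, adjusted p = 4.82e-08, 4.46e-05 and 9e-07). The interaction did not pass for Ccr2 (1.87 ± 0.91, adjusted p = 0.146), Ccr6 (-0.44 ± 0.59), Cxcr3 (0.35 ± 0.48), Cxcr4 (0.46 ± 0.28) and Cxcr6 (-0.14 ± 0.25). The Ccr2 interaction varied with the library left out: it was 2.49 without replicate 2 of depleted cells with BioNICD1 (adjusted p = 0.037, with 5 counts left in that group), 0.31 without replicate 1 (adjusted p = 1) and 0.21 without both libraries that stood apart (adjusted p = 0.984).

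**Figure D3:**
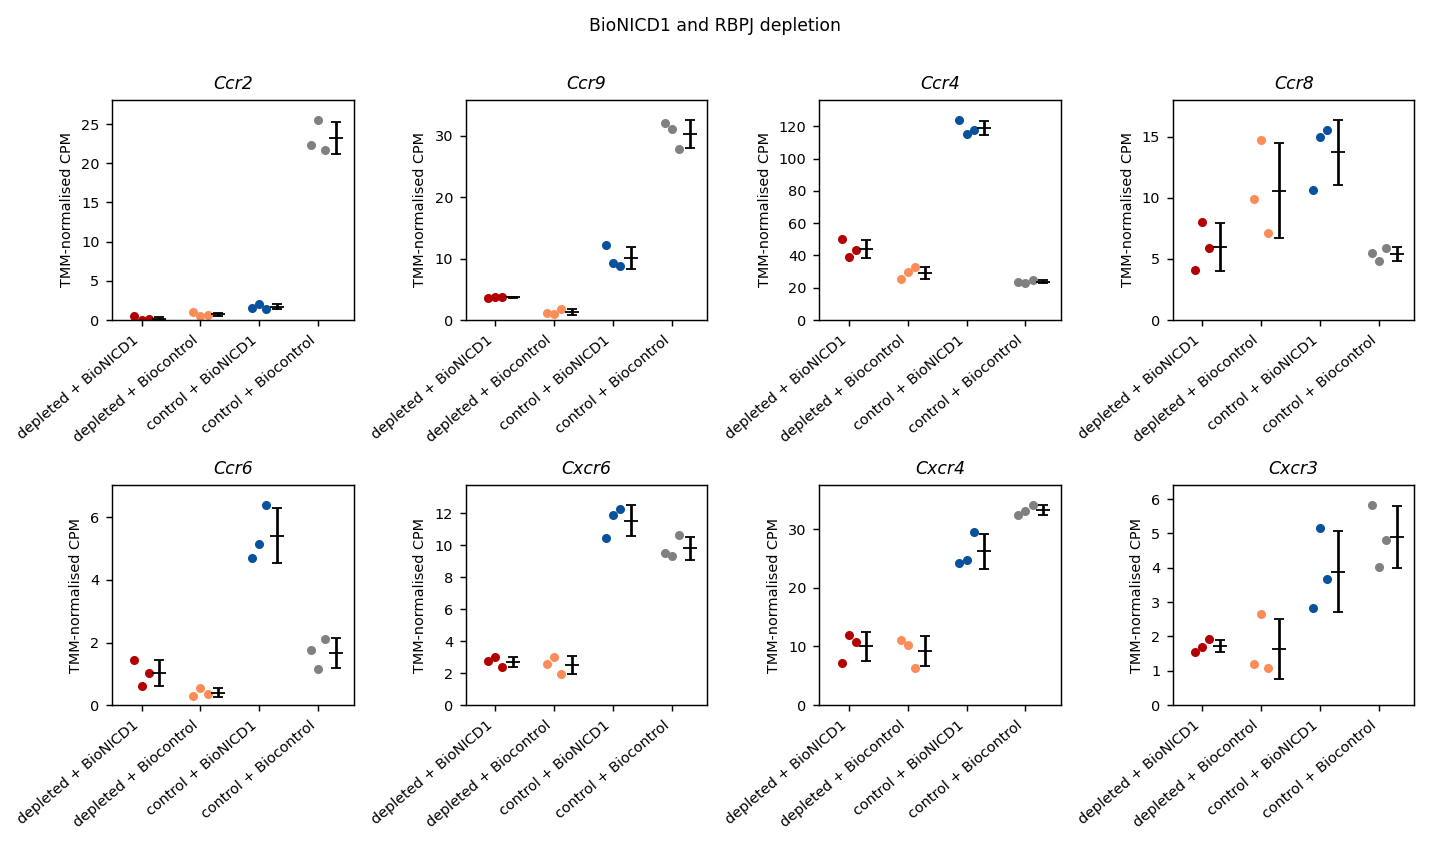
TMM-normalised CPM of 8 receptors in the BioNICD1 experiment, by group, with RBPJ-depleted cells on the left of each panel and control cells on the right; each panel has its own vertical axis, which starts at 0. Points are libraries (n = 3 per group), and the bar beside them is the mean with its SD. Ccr2 is at 23.2 CPM on average in control cells with Biocontrol and at most 2.1 CPM in every library of the other groups, and Ccr4 is highest in control cells with BioNICD1 at 119 CPM on average.

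Overexpressed KYOT2 wild type lowered Ccr2 and no other receptor passed against GFP, 1 of 7 tested beside 0.888% of all genes, 0.807% higher and 0.0807% lower. Ccr2 had 1.17, 0.279 and 0.478 CPM with KYOT2 wild type, against 4.48, 3.45 and 4.55 CPM with GFP, 7.03-fold lower (log2 fold change -2.81 ± 0.37 SE, adjusted p = 0.00108). In counts this was 11, 4 and 6 with KYOT2 wild type, against 41, 39 and 58 with GFP. With the WWAA mutant Ccr2 had 3.07, 4.85 and 5.27 CPM, which overlapped with GFP (0.08 ± 0.26, adjusted p = 0.967). All libraries with KYOT2 wild type were below all libraries with WWAA or GFP.

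The difference between the wild type and the mutant was tested directly, and 2 of 7 receptors passed beside 1.87% of all genes (1.26% higher and 0.601% lower). Ccr2 was 7.41-fold lower with KYOT2 wild type than with WWAA (-2.89 ± 0.37 SE, adjusted p = 0.000784). Both Ccr2 calls were kept without each library in turn (-3.45 to -2.40 against GFP and -3.52 to -2.48 against WWAA), and without replicate 3 of all 3 groups (-2.60, adjusted p = 3.33e-05, and -2.62, adjusted p = 1.27e-05). Ccr8 had 13.6, 14.5 and 14.3 CPM with KYOT2 wild type, against 8.86, 8.91 and 11 CPM with WWAA (0.56 ± 0.11, adjusted p = 0.0196). The GFP libraries, at 10.5, 12.3 and 10.6 CPM, were below all libraries with KYOT2 wild type and overlapped with WWAA, and neither group differed from GFP past the threshold (0.35 ± 0.11, adjusted p = 0.196, and -0.22 ± 0.12, adjusted p = 0.643). The Ccr8 call was lost without replicate 1, 2 or 3 of KYOT2 wild type (0.59, 0.54 and 0.56, adjusted p = 0.0583, 0.102 and 0.0614) and without replicate 1 or 2 of WWAA (0.51 each, adjusted p = 0.0974 and 0.101). It was kept without replicate 3 of all 3 groups (0.67, adjusted p = 0.00124).

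With the WWAA mutant 0 of 7 receptors passed against GFP, beside 0.0897% of all genes (0.0717% higher and 0.0179% lower), and 0 passed in DESeq2. At the looser threshold of an unadjusted p below 0.05 in edgeR there were 2. The share of all genes at that threshold was not counted. The 2 were Ccr9, with 1.96, 1.73 and 2.27 CPM with WWAA, against 1.09, 1.42 and 0.549 CPM with GFP (0.98 ± 0.31, adjusted p = 0.414), and Cxcr4 (0.13 ± 0.05, adjusted p = 0.479). Neither overlapped between WWAA and GFP, and without replicate 3 of all 3 groups Ccr9 was at 0.53 (adjusted p = 0.58). Cxcr4 had 119, 121 and 125 CPM in KYOT2 wild type libraries, 131, 127 and 127 CPM in WWAA libraries and 122, 114 and 116 CPM with GFP. Ccr4 (8.51 to 13.3 CPM) and Ccr6 (0.426 to 1.19 CPM) overlapped between the 3 groups. Cxcr6 had 4.94 to 5.8 CPM with WWAA, against 4.05 to 4.86 CPM with GFP, without overlap (0.25 ± 0.15, adjusted p = 0.684), and KYOT2 wild type (4.22 to 5.02 CPM) overlapped with both. Ccr7 had 4 to 15 counts per library, and Cxcr3 and Cxcr5 at most 3.

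Treatment with the gamma-secretase inhibitor raised Ccr2, Ccr9, Ccr7 and Cxcr6 and lowered Ccr6, 5 of 8 tested receptors beside 20.7% of all genes (9.16% higher and 11.6% lower). Ccr2 had 66.4 and 66.1 CPM with GSI, against 25.7 and 31.1 CPM with DMSO, 2.31-fold higher (log2 fold change 1.21 ± 0.09 SE, adjusted p = 1.93e-12). Ccr9 had 8.18 and 10.5 CPM with GSI, against 3.54 and 4.15 CPM with DMSO (1.27 ± 0.23, adjusted p = 0.000121). Ccr7 had 4.59 and 3.55 CPM with GSI, against 1.68 and 2.23 CPM with DMSO (1.03 ± 0.34, adjusted p = 0.0314). All 3 were higher in both GSI libraries than in either DMSO library. Ccr7 would not have met the low-count filter on its DMSO libraries alone and entered the test through the GSI group. Its call among the 5 is therefore not offered as support that it rose.

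The other changes were smaller, 1.18-fold for Cxcr6 and 1.19-fold for Ccr6. Cxcr6 had 117 and 114 CPM with GSI, against 96.2 and 99.8 CPM with DMSO (0.23 ± 0.05, adjusted p = 0.00158), and Ccr6 had 74.6 and 76.9 CPM against 90.6 and 90.3 CPM (-0.25 ± 0.06, adjusted p = 0.00189). Ccr8 (0.16 ± 0.06, adjusted p = 0.0868), Cxcr4 (-0.08 ± 0.05) and Ccr4 (0.03 ± 0.07) did not pass. Cxcr3 had 10 and 12 counts with GSI and DMSO, and Cxcr5 had 3 and 0.

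With DESeq2 only the Ccr2 call was kept, and those of Ccr9 (adjusted p = 0.0889), Ccr6 (0.375), Cxcr6 (0.325) and Ccr7 (0.661) were lost at log2 fold changes of the same sign. The Ccr7 call was also lost without replicate 1 or 2 of GSI (0.84 and 1.21, adjusted p = 0.258 and 0.0549) and without replicate 1 or 2 of DMSO (0.85 and 1.26, adjusted p = 0.174 and 0.0893). The 2 GSI libraries differed by less than sampling noise (chi-square per gene 0.766) and are the only libraries of their group, so their spread may understate that between cultures. The DMSO pair was little above sampling noise (1.2), so the same may hold there.

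In the depletion experiment, Ccr6 was lower in line 2-12, and no receptor passed as higher. Ccr6 had 35.7 and 29.5 CPM in line 2-12 and 63.5 and 31.4 CPM in line 2-14, against 84.8 and 105 CPM in the control line. Both lines lay below both control libraries. The mean of both lines was 2.44-fold lower than the control (log2 fold change -1.29 ± 0.27 SE, adjusted p = 0.0323), line 2-12 alone 2.93-fold lower (-1.55 ± 0.33, adjusted p = 0.0408), and line 2-14 did not pass (-1.02 ± 0.32, adjusted p = 0.124). Ccr6 was the 1 receptor of 6 that passed for both lines, beside 9.89% of all genes (6.21% higher and 3.68% lower), and for line 2-12, beside 6.96% (4.83% higher and 2.13% lower). For line 2-14, 0 of 6 passed beside 5.05% (3.4% higher and 1.65% lower), and 1, Ccr6, passed in DESeq2 (adjusted p = 0.0487). At an unadjusted p below 0.05 in edgeR there were 2, and the share of all genes at that looser threshold was not counted.

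These calls rest on 2 libraries per line. The Ccr6 call was lost without replicate 1 or 2 of the control (-1.43 and -1.12 for both lines, adjusted p = 0.104 and 0.0908; -1.69 and -1.39 for line 2-12, adjusted p = 0.108 and 0.0779). It was also lost without replicate 1 or 2 of line 2-12 (-1.36 and -1.22 for both lines, adjusted p = 0.0639 and 0.0796; -1.69 and -1.42 for line 2-12, adjusted p = 0.137 and 0.179). For line 2-14 it passed without replicate 1 of that line (-1.60, adjusted p = 0.0222), and over all fits that left out 1 library it was -1.60 to -0.59, adjusted p = 0.0222 to 0.37. With the replicate number as a block, Ccr6 passed in both lines together, in line 2-12 and in line 2-14 (-1.12, adjusted p = 0.00977). Of 11566 genes tested, 4260, 3672 and 3243 passed with the block in these comparisons.

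Ccr2 had 2.91 and 6.15 CPM in line 2-12 and 1.23 and 1.14 CPM in line 2-14, against 4.04 and 5.79 CPM in the control line. Line 2-14 held the lowest values, at 5 and 7 counts, and line 2-12 spanned the control. Line 2-14 was 4.22-fold below the control at an adjusted p of 0.0872 (-2.08 ± 0.56 SE), and with the replicate block it passed (-2.07, adjusted p = 0.0115), as did the mean of both lines (-1.07, adjusted p = 0.0403, against -1.10 and 0.15 without the block). With the block, 3243 and 4260 of 11566 genes passed in these comparisons. Between the lines 0 of 6 receptors passed, beside 0.484% of all genes (0.303% higher and 0.182% lower), and 0 passed in DESeq2. At an unadjusted p below 0.05 in edgeR there was 1, and the share of all genes at that looser threshold was not counted. That 1 was Ccr2, 3.87-fold higher in line 2-12 than in line 2-14 (1.95 ± 0.54, adjusted p = 0.438).

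The other receptors did not pass in the edited lines. Ccr8 had 57.3 and 45.6 CPM in line 2-12 and 62.1 and 50.6 CPM in line 2-14, against 35.9 and 45.7 CPM in the control line (0.38 ± 0.18 for both lines, adjusted p = 0.201). Cxcr4 stood at 120 to 137 CPM in all 6 libraries. Ccr4 and Cxcr6 differed between the 2 control libraries themselves, at 13.5 and 34.7 CPM for Ccr4 and 28.7 and 63 CPM for Cxcr6, and all edited libraries fell within those values. Without replicate 2 of the control, Ccr4 passed in line 2-12 (1.02, adjusted p = 0.046), within -0.34 to 1.02, adjusted p = 0.046 to 1 over all fits that left out 1 library. Ccr7 had 9 and 4 counts in line 2-12, 1 and 1 in line 2-14 and 1 and 0 in the control; the ratio of line 2-12 to the control was 9.21, with a counting interval of 1.38 to 391. Ccr9 had 1 to 11 counts per library, and Cxcr3 and Cxcr5 at most 3. Log2 fold changes for both lines and for depleted cells with Biocontrol were 0.06 and -1.83 for Cxcr4, and 0.03 and -1.94 for Cxcr6. They were -1.10 and -4.99 for Ccr2, -1.29 and -1.99 for Ccr6, 0.38 and 0.99 for Ccr8, and -0.13 and 0.30 for Ccr4. The 2 experiments were fitted apart and their difference was not tested. Line, vector and library batch cannot be told apart from RBPJ loss there.

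**Figure D4:**
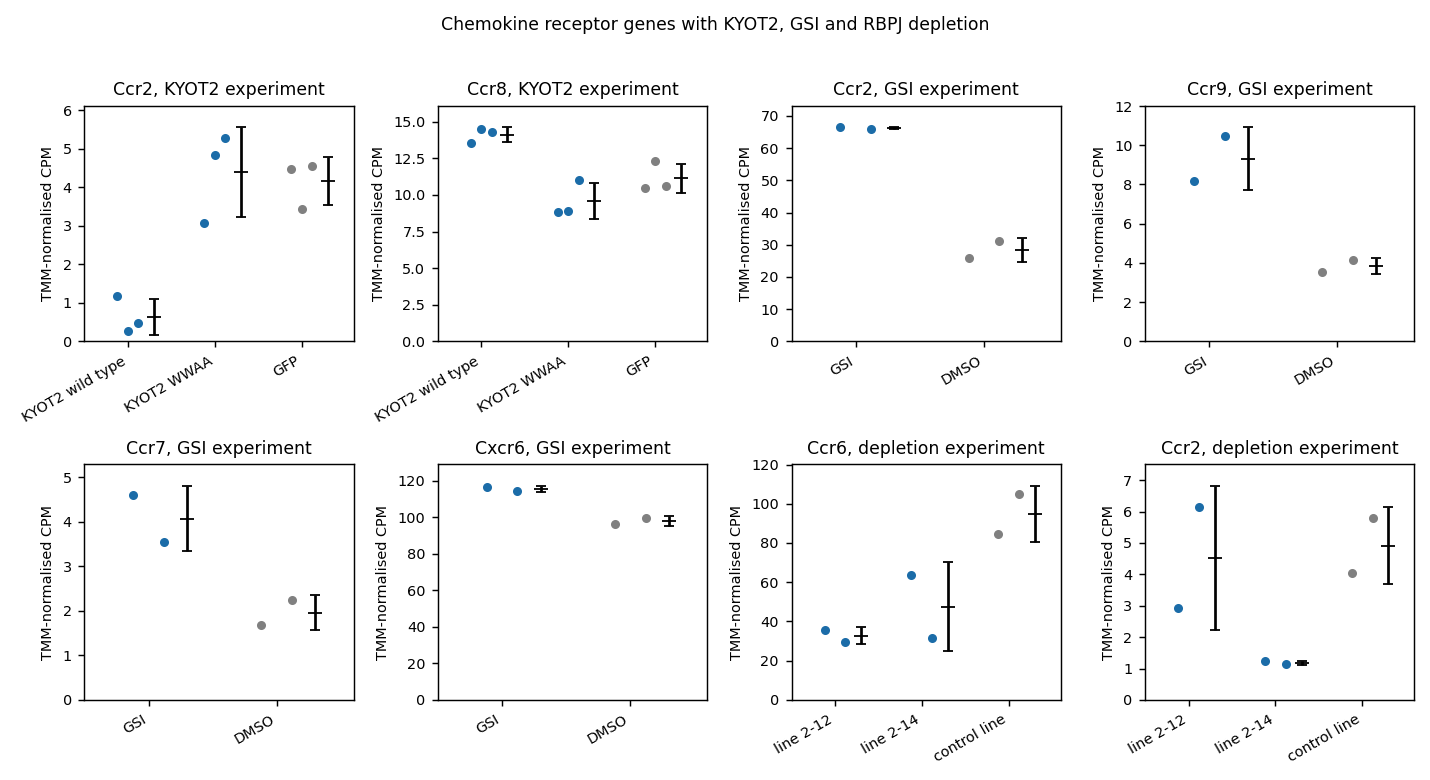
TMM-normalised CPM of selected receptors in the KYOT2 (n = 3 libraries per group), GSI (n = 2) and depletion (n = 2) experiments; each panel has its own vertical axis, which starts at 0. Blue points are libraries with KYOT2, with GSI or of the edited lines, grey points are GFP, DMSO or control libraries, and the bar beside them is the mean with its SD. Ccr2 is lowest with KYOT2 wild type at 0.641 CPM on average and higher with GSI at 66.3 CPM than with DMSO at 28.4 CPM.

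Ccr2 is also a well-known receptor of monocytes, so 6 myeloid marker genes were set beside it, all of which had counts in some library. Their summed level was 27.7 to 28.1 CPM at 4 h, 27.1 to 31.6 CPM at 8 h and 40.3 to 41.1 CPM at 24 h of 4-OHT, where ethanol had 38.7 to 42.3 CPM. It was 10.1 to 11.9 CPM in depleted cells with BioNICD1, 9.39 to 13.2 CPM in depleted cells with Biocontrol and 26.6 to 28.3 CPM in control cells with BioNICD1, against 30.8 to 34.4 CPM in control cells with Biocontrol. With KYOT2 wild type it was 15.3 to 18 CPM and with WWAA 11.2 to 15.1 CPM, against 12.9 to 19.5 CPM with GFP, and with GSI 84.9 to 89 CPM, against 57.3 to 63.4 CPM with DMSO. In the depletion experiment the sum was 22.4 to 30.6 CPM for line 2-12 and 21.1 to 26 CPM for line 2-14, against 45.3 to 58.5 CPM in the control line. Most of the sum was Cd68, a lysosomal gene, at up to 85.4 CPM. Itgam reached 6.26 CPM, Lyz2 3.7 CPM, Csf1r 0.743 CPM, Cd14 0.399 CPM and Adgre1 0.373 CPM, and the last 3 of these were at 0 in all libraries of both Biocontrol groups. In line 2-12 Cd68 was lower (-1.23, adjusted p = 0.0326). Itgam was at 3.16 and 3.42 CPM in line 2-12 and at 0 in the control line. It passed the low-count filter only through line 2-12, so no test result is given for it. With BioNICD1 in control cells Cd68 (-0.50, adjusted p = 0.00827) and Lyz2 (-0.89, adjusted p = 0.0197) were lower and Itgam (2.58, adjusted p = 0.000146) higher. The part of these genes in the Ccr2 results was not tested.

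Other genes of the chemokine system were read from lists of 17 ligands, 13 further receptors and 28 signalling and trafficking genes. Most ligands and further receptors had too few counts, with 2 or 3 ligands and 2 to 5 receptors tested per experiment. Ccl1, a ligand of Ccr8, was below the limit of detection with ethanol, at 2 counts in all, and passed the low-count filter only through the 4-OHT groups; it averaged 2.02, 2.52 and 2.83 CPM after 4, 8 and 24 h. Cxcl10, a ligand of Cxcr3, was higher with GSI (log2 fold change 1.12) and with BioNICD1 in control cells (1.92), and lower in depleted than in control cells with BioNICD1 (-2.29). Ccrl2, an atypical receptor that binds chemerin, was higher at 24 h of 4-OHT (1.17), with BioNICD1 in control cells (2.16) and in depleted cells with Biocontrol (1.19), and lower in depleted cells with BioNICD1 than in control cells with BioNICD1 (-1.80).

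Among the 28 signalling and trafficking genes, Gpr183, an oxysterol receptor that positions T and B cells in lymphoid tissue, rose with NICD1-ER. It averaged 5.72 CPM with ethanol and 28.1, 35 and 49.7 CPM after 4, 8 and 24 h of 4-OHT. In control cells Gpr183 averaged 9.42 CPM with BioNICD1. With Biocontrol it was below the limit of detection, at 0.0383 CPM where 3 counts stand for 0.297 to 0.37 CPM, so no fold is given. Klf2, a transcription factor that keeps lymphocytes recirculating, was higher in the edited lines (1.69 for both, adjusted p = 0.00859) and in depleted cells with Biocontrol (2.67, adjusted p = 3.91e-05). Arrb1, an arrestin that turns receptors off, was lower at 4 h (-0.84) and 8 h (-1.11) of 4-OHT and with GSI (-0.44), and higher with BioNICD1 in control cells (1.05). Of the list, 1 gene passed higher and 5 lower of 25 tested at 24 h of 4-OHT, beside 6.59% and 4.22% of all genes, where the median log2 fold change was -0.07, beside -0.01 over all genes. With BioNICD1 in control cells 9 were higher and 3 lower of 25, beside 18.7% and 14.2% of all genes, with a median of 0.32 beside 0.01 over all genes, and in depleted against control cells with BioNICD1 2 were higher and 11 lower, beside 18.5% and 21.4%, with a median of -0.30 beside 0.00. With KYOT2 wild type against GFP, 0 of 25 passed in edgeR, beside 0.888% of all genes.

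Receptors and other genes were also compared by pattern, as Pearson's r of log2(CPM + 1) group means, each centred on its experiment, over 16 groups and 10408 genes that passed the filter in all 5 experiments. These values describe the 16 group means, which share controls and libraries within an experiment, and carry no test. Closest to Cxcr4 were Irak1 (r = 0.99), Arl8b and Zxda (0.98 each), closest to Ccr4 were H2-T24 (0.98), Nfkb1 (0.96) and Lrrc41 (0.95), and closest to Cxcr6 were Cep164 (0.95), 5031439G07Rik (0.95) and Cd99l2 (0.93). For Ccr2 they were Ctbs (0.92), Prickle3 (0.91) and Arhgap12 (0.91), for Ccr6 Sp9 (0.92), Slc9a9 (0.91) and Yaf2 (0.91), and for Ccr8 Grcc10 (0.93), Shisa5 (0.91) and Adat3 (0.91). Among the receptors themselves, r was highest for Cxcr4 with Cxcr6 (0.87) and lowest for Ccr2 with Ccr8 (-0.38). Cxcr4 passed only in the RBPJ depletion comparisons of the BioNICD1 experiment, so every r with Cxcr4 rests mainly on the groups of that experiment. At 24 h of 4-OHT the log2 fold change was 0.00 for Cxcr4 and -1.04 for Cxcr6.

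By RefSeq (GRCm38.p6), 6 of the 10 receptor genes lie on mouse chromosome 9: Ccr2, Ccr4, Ccr8, Ccr9, Cxcr5 and Cxcr6. Ccr9, Fyco1, Cxcr6 and Xcr1 follow each other there. Ccr6 and Ccr9 each overlap a long noncoding RNA and Cxcr5 overlaps Bcl9l in that annotation, so their counts may hold reads of the overlapping gene if strand was not used.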

How the data were processed

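Gene counts from 41 RNA libraries in 16 groups and 5 experiments were analysed. The authors deposited raw read counts per gene in 1 table; the submitters' processing notes name TopHat2 2.1.1, Picard, deepTools and the mm9 build, while their roles, the counter, the annotation and any use of strand are not given in the sources used here. Of 65 columns, 24 were not used: 2 share the heading of replicate 1 of the ethanol group and cannot be told apart, and the names of the others match no sample analysed here. Replicate 1 of the ethanol and of the 24 h 4-OHT group were therefore not analysed here. Region lists were not used. Nothing states that replicates were separate cultures, so p-values measure only the spread between these samples.

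Each experiment was fitted alone with edgeR 4.0.16 in R 4.3.3: filterByExpr (minimum count 10), TMM factors, prior count 0.125 and the quasi-likelihood test over all groups of the experiment, with Benjamini-Hochberg adjustment over all genes tested and a threshold of 0.05. Scripts were tested on simulated data. Replicates of a group were compared by a chi-square test of their counts, and those that differed by less than sampling noise were summed where their group had another library. Alternatives were DESeq2 1.42.0, RLE factors, no low-count filter, only the groups compared, a replicate block, each library in turn left out and each NICD1-ER library taken as its own sample. Chosen after seeing the data were leaving out the libraries that stood apart, and a block over the NICD1-ER libraries taken singly. In the depletion experiment, same-numbered libraries deviated together (r = 0.455 to 0.636 over 6 pairs). With 2 libraries per line the deviations mirror each other, so these pairs are not independent. The numbers were taken to pair the libraries, but the fit without the block was kept as the main one. Calls, values that did not pass and leave-out ranges of that experiment therefore ignore the pairing. Receptors whose call changes with the block are named. Counting intervals (95%) and the floor of 3 counts cover counting error only.

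The 10 receptors are named in every comparison. Of each other list at most 3 genes per comparison that passed are named, by size of the log2 fold change, beside Rbpj as a check of the labels, neighbouring or overlapping genes, and Arrb1, Klf2 and Ccrl2, which are followed across comparisons and were chosen after their values were seen. The 3 genes of nearest pattern are named per receptor, on log2(CPM + 1). The members and lists were chosen with earlier results of these data known.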

Additional observations from a re-analysis of the deposited data

Results flagged for a closer look

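The effect of BioNICD1 differed between RBPJ-depleted and control cells for 3 of 8 tested receptors, by the interaction term in edgeR, beside 22.5% of all genes. The effect in depleted cells minus that in control cells was -1.73 on the log2 scale for Ccr4, -2.17 for Ccr8 and 3.13 for Ccr9. Depleted cells with BioNICD1 include replicate 1, and depleted cells with Biocontrol include replicate 3, which stood apart from their groups. Without both of these libraries the values were -1.74, -2.17 and 3.43.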

How the results depend on the processing

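Over 1787 values under the alternatives, 1717 stayed on the same side of the threshold, 42 calls were lost and 28 gained; 52 values changed sign, none of them past the threshold in either fit. The number of receptors called moved by more than 1.5 times as follows. With DESeq2 it was 3 at 4 h of 4-OHT, against 6, 1 with GSI, against 5, and 1 in line 2-14, against 0. Without the low-count filter it was 2 in line 2-14, against 0, and 1 between the lines, against 0. With the replicate block it was 2 for both edited lines, against 1, and 2 for line 2-14, against 0, beside 4260 and 3243 of 11566 genes. In the KYOT2, GSI and BioNICD1 experiments, where same-numbered libraries had r = 0.0507 to 0.476, 0.0272 and -0.516 to 0.636, the block changed no call. With NICD1-ER (r = 0.0651 to 0.204) summed samples carry no single number, so the block was fitted only with each library as its own sample, where Ccr9 passed at 8 h (-0.43, adjusted p = 0.0461). Taken as single libraries without the block, Ccr9 at 8 h (-0.48, adjusted p = 0.0361) and Cxcr3 at 4 h (-0.63, adjusted p = 0.0426) also passed, as they did without the low-count filter (-0.47, adjusted p = 0.0234, and -0.62, adjusted p = 0.0491). BioNICD1 in depleted cells gave 4 calls without both libraries that stood apart and 0 with only the groups compared, against 2. Among the 4 was Ccr2, whose average in depleted cells with BioNICD1 was below the limit of detection. Leaving out 1 library gave 0 to 1 calls for both edited lines, line 2-12 and line 2-14, 1 to 2 for KYOT2 wild type against WWAA and 1 to 3 for BioNICD1 in depleted cells. Smaller moves were 5 with DESeq2 at 8 h, against 7, and 4 at 24 h against 4 h, against 6, and, leaving out 1 library, 4 to 6 at 4 h and at 24 h against 4 h, 7 to 8 at 8 h, 4 in each GSI fit, 6 to 8 for depletion with Biocontrol, 7 to 8 for depletion with BioNICD1 and 3 to 4 for the interaction; other settings moved counts by 1. The cause of these changes was not tested. Over all genes, counts under settings other than leaving out 1 library that differed by more than 1.5 times were these. The count was 56 for line 2-12 against line 2-14 (102 with DESeq2, 302 with no low-count filter, 282 with replicate block), and 1144 for RBPJ depletion, both edited lines (2671 with no low-count filter, 4260 with replicate block), and 805 for RBPJ depletion, line 2-12 (2126 with no low-count filter, 3672 with replicate block, 486 with only the groups compared). The count was 584 for RBPJ depletion, line 2-14 (1870 with no low-count filter, 3243 with replicate block), and 738 for NICD1-ER, 4 h 4-OHT (206 with DESeq2, 1223 with each library its own sample, replicate block), and 1225 for NICD1-ER, 8 h 4-OHT (409 with DESeq2). The count was 1276 for NICD1-ER, 24 h 4-OHT (581 with DESeq2), and 1584 for NICD1-ER, 24 h against 4 h 4-OHT (432 with DESeq2), and 10 for KYOT2 WWAA against GFP (22 with DESeq2, 66 with no low-count filter, 67 with replicate block, 279 with replicate 3 of all 3 groups left out). The count was 99 for KYOT2 wild type against GFP (262 with no low-count filter, 320 with replicate block, 465 with replicate 3 of all 3 groups left out), and 208 for KYOT2 wild type against WWAA (395 with no low-count filter, 567 with replicate block, 629 with replicate 3 of all 3 groups left out), and 2414 for GSI against DMSO (608 with DESeq2). The count was 469 for BioNICD1 in depleted cells (750 with DESeq2, 1285 with both depleted libraries that stood apart left out, 4 with only the groups compared), and 3723 for BioNICD1 in control cells (5882 with both depleted libraries that stood apart left out, 5847 with only the groups compared), and 2548 for the interaction of BioNICD1 and depletion (4665 with both depleted libraries that stood apart left out). Leaving out 1 library gave 379 to 2511 for RBPJ depletion, both edited lines, 259 to 1914 for RBPJ depletion, line 2-12, 200 to 1303 for RBPJ depletion, line 2-14, 3 to 54 for line 2-12 against line 2-14, 434 to 729 for NICD1-ER, 4 h 4-OHT, 614 to 1434 for NICD1-ER, 8 h 4-OHT, 746 to 1420 for NICD1-ER, 24 h 4-OHT. It gave 702 to 1774 for NICD1-ER, 24 h against 4 h 4-OHT, 50 to 239 for KYOT2 wild type against GFP, 6 to 18 for KYOT2 WWAA against GFP, 79 to 239 for KYOT2 wild type against WWAA, 1436 to 2276 for GSI against DMSO, 165 to 1224 for BioNICD1 in depleted cells, 1614 to 4361 for the interaction of BioNICD1 and depletion. Depth limits Cxcr5, Ccr7, Cxcr3 and the low Ccr2 and Ccr6 levels, where a few counts set the value.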
